A study of Mus musculus with 30 samples.

Results

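The 41 genes described here encode proteins that copy DNA and its chromatin in the S phase of the cell cycle, together with cyclin E, which starts that phase. They were taken by symbol from a table of expected counts, which are reads per gene as estimated when reads that map to several places are shared out. All 41 listed symbols were among the 16025 in the table, and all 41 were among the 12184 genes that passed a filter on low counts and were tested. The study asked how D-galactose, a sugar used in large doses to model ageing, and red ginseng preparations alter the RNA of mouse muscle cells.

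RNA came from C2C12, a single wild-type line of mouse myoblasts that stops dividing and fuses into multinucleate myotubes when serum is lowered. Each of 10 groups had 3 libraries, which the study calls biological replicates. The control group received vehicle. The Dgal group received D-galactose at 20 mg/mL for 24 h. Of the groups with a preparation alone, each for 12 h, RGW received a water extract of Korean Red Ginseng at 100 ug/mL, SFr a saponin fraction at 100 ug/mL, NSFr a non-saponin fraction at 100 ug/mL, and Rb2 the single saponin ginsenoside Rb2 at 20 uM. The RGW_Dgal, SFr_Dgal, NSFr_Dgal and Rb2_Dgal groups received the preparation for 12 h and then D-galactose at 20 mg/mL for 24 h. The labels give no harvest time, so in a comparison of a preparation alone with its D-galactose partner the time of exposure may differ as well as the sugar.

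Before a cell enters S phase, the origin recognition complex (Orc1 to Orc6) with Cdc6 and Cdt1 loads a ring of the MCM proteins onto DNA, a step called licensing. Cdc45, the GINS complex and Mcm10 then turn the ring into a working helicase, DNA polymerase alpha with its primase starts each strand, polymerases delta and epsilon extend it on the sliding clamp PCNA, and Fen1 and DNA ligase 1 join the pieces of the lagging strand. Many of these genes are targets of E2F transcription factors, which are held in check by the retinoblastoma protein once muscle cells leave the cell cycle. Nuclei in myotubes do not normally replicate DNA, whereas a differentiated C2C12 culture also holds unfused mononucleate cells, some of which can divide again.

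The libraries held 22209306 to 30218420 counts each, and levels below are CPM, counts scaled to a common library size. Myotube genes were abundant in the control libraries: Myog, a transcription factor of differentiation, was at 1144 ± 40.3 CPM (SD, n = 3) and the embryonic myosin Myh3 at 4192 CPM. Pax7, a marker of undifferentiated muscle cells, was present too, at 32.7 CPM in the control group. The myogenic factor Myod1, which does not mark that state alone, was at 226 CPM there. The replication genes themselves were expressed over a wide range. Levels were also divided by the length of the merged exons of a gene's protein-coding transcripts, which can exceed that of the transcripts expressed. On this scale the mean over all libraries was highest for Pcna at 37.2 CPM per kb. Rrm2 followed at 36.1 and Rrm1 at 17.1 CPM per kb, and Orc1 was lowest at 0.250 CPM per kb. Subunits of one complex were not level: on the same per-length scale Mcm7 stood at 8.55, Mcm6 at 7.87, Mcm4 at 5.65, Mcm2 at 5.58, Mcm3 at 3.78 and Mcm5 at 1.91 CPM per kb. Orc1 had only 5 to 34 counts in a library, Cdc6 16 to 72, Mcm10 19 to 62, Gins1 22 to 53 and Chaf1b 27 to 101, so changes in these 5 genes carry wide errors. In most libraries the counts of 10 members were fractional (Mcm7, Gins2, Pcna, Rfc2, Rfc4, Rfc5, Fen1, Rrm2, Ccne2 and Chaf1a), so reads shared with other loci entered them. How many of their reads were shared was not measured, so their values are uncertain to an unknown extent.

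D-galactose lowered a subset of the replication genes that was spread over most steps of replication. Against the control, 18 of the 41 passed the test (edgeR, Benjamini-Hochberg adjusted p under 0.05 over all genes tested), 17 of them lower and 1 higher, where 25.1% of all tested genes were called, 13.1% lower and 11.9% higher. The median log2 fold change was -0.15 over the 41 members and -0.0042 over all tested genes, and 35 of the 41 lay below 0. Among the 10 licensing genes 3 fell and 1 rose. In the other steps 1 of 5 helicase activation genes fell, 2 of 6 polymerase and primase genes, 2 of 5 clamp and clamp loader genes, both lagging strand genes, 3 of 5 nucleotide supply genes and all 4 chromatin genes. Neither Rpa1 nor Rpa2, subunits of the single-strand binding protein RPA, and neither cyclin E passed. Of the 18 calls, those of Pcna, Dnmt1, Dut, Rfc5, Mcm6 and Pola1 were lost in 5, 4, 3, 3, 1 and 1 of 11 alternative settings (other tools, filters and scaling, or 1 library left out). RNA was measured in bulk, so fewer cells that express a gene and less of its RNA in each cell cannot be told apart in any of these results. Of 20 tested myotube markers 4 rose and 3 fell with D-galactose, and their sum was 38278 to 41992 CPM in the control and 36540 to 37955 CPM in the Dgal libraries. Of 14 markers of undifferentiated myoblasts or reserve cells 4 fell and 1 rose, with sums of 1200 to 1222 CPM and 1161 to 1194 CPM. Of 5 markers of macrophages and other blood cells 4 were in the table and 2 could be tested, and their sum was 0.975 to 1.26 CPM in the control and 1.79 to 2.23 CPM in Dgal. Cd68, a lysosomal protein that other cells also make, was at 0.740 ± 0.278 CPM (SD, n = 3) in the control and 1.85 CPM in Dgal, while the defining genes Ptprc and Hbb-bs had 0 or 1 count in any library. The part of these markers in the result was not tested.

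**Figure D1:**
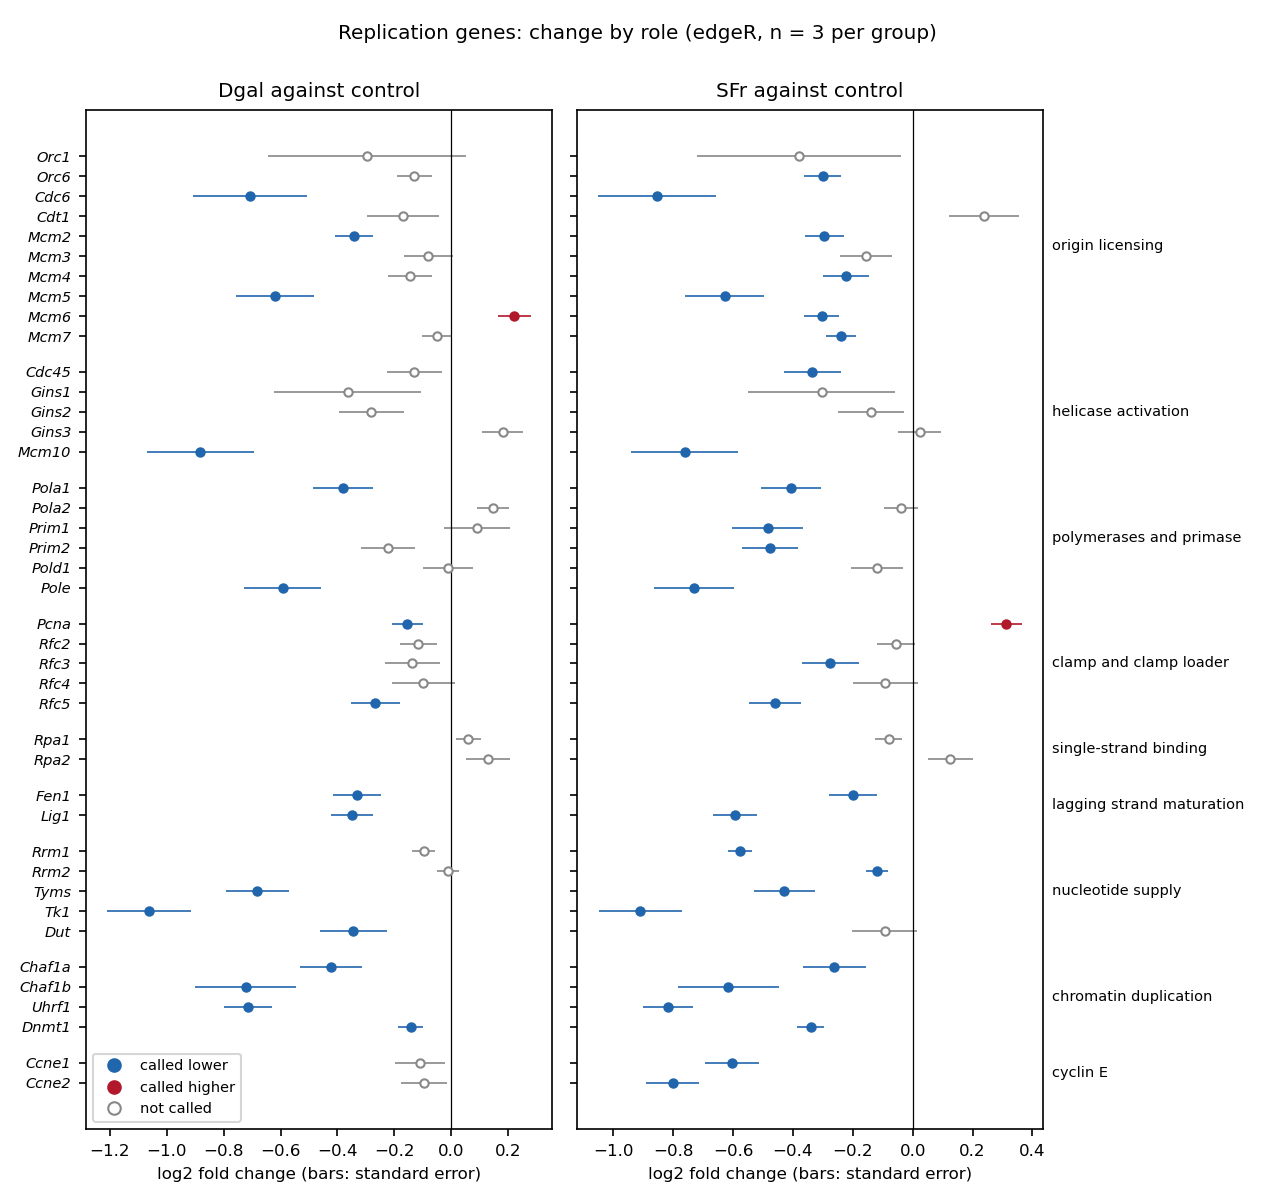
Log2 fold change (x axis) of each of the 41 genes, in rows by role in replication, for Dgal against the control (left) and SFr against the control (right), with bars for the standard error, filled points for genes called by edgeR at adjusted p under 0.05 (blue lower, red higher) and open points for the rest. Tk1 is lowest in both panels, at -1.06 and -0.91, and the single gene called higher is Mcm6 (0.22) on the left and Pcna (0.31) on the right.

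Nucleotide supply held the largest fall. Tk1, the thymidine kinase that salvages thymidine for DNA, stood at 8.88, 7.67 and 7.61 CPM in the 3 control libraries and at 4.78, 2.72 and 4.08 CPM in the 3 Dgal libraries. Each Dgal library was below each control library, and the log2 fold change was -1.06 ± 0.147 (SE), with an adjusted p of 2.11e-06 (edgeR). Tyms, the thymidylate synthase that makes dTMP from dUMP, fell by 0.68 on the log2 scale (adjusted p 1.81e-05), and Dut, which removes dUTP, fell by 0.34 (adjusted p 0.0283, lost without control library 1, Dgal library 1 or Dgal library 2, up to 0.189). The ribonucleotide reductase subunits did not pass: Rrm1 was at -0.10 ± 0.0392 with an adjusted p of 0.0662 and Rrm2 at -0.01 ± 0.0376 with an adjusted p of 0.864.

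Within licensing, the members of a single hexamer moved in opposite directions. Mcm5, one of its 6 subunits, was at 8.18, 7.34 and 7.95 CPM in the control libraries and at 5.85, 5.13 and 4.39 CPM in the Dgal libraries, with no overlap and a log2 fold change of -0.62 ± 0.136 (edgeR adjusted p 0.00102). Mcm2, another subunit, was at 20.1, 20.1 and 23.3 CPM against 18.0, 15.6 and 16.5 CPM and fell by 0.34 on the log2 scale (adjusted p 0.000253). Mcm6 went the other way, from 33.4, 32.0 and 32.8 CPM in the control to 37.3, 41.8 and 35.6 CPM with D-galactose. Every Dgal library was above every control library for Mcm6, at a log2 fold change of 0.22 ± 0.058 (adjusted p 0.00475), although the call was lost without Dgal library 2, the highest (adjusted p 0.0700). Mcm3, Mcm4 and Mcm7 were at -0.08, -0.15 and -0.05 and did not pass. Cdc6, which helps to load the ring, fell by 0.71 on the log2 scale (adjusted p 0.0092), while Cdt1, its partner in loading, was at -0.17 and Orc1 and Orc6 at -0.30 and -0.13 without passing.

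Among genes of the helicase and the polymerases the falls were also uneven. Mcm10, a scaffold that activates the helicase, was at 2.16, 1.64 and 1.81 CPM in the control and at 1.03, 0.982 and 1.05 CPM in the Dgal libraries. The groups did not overlap, and the log2 fold change was -0.88 ± 0.189 (edgeR adjusted p 0.00071). Gins1 and Gins2, subunits of GINS, were at -0.36 and -0.28, and Gins3 of the same complex was at 0.18, none of them past the test. Pole, the catalytic subunit of the leading strand polymerase epsilon, was at 4.67, 4.89 and 4.64 CPM in the control and at 3.13, 3.21 and 3.07 CPM with D-galactose, again without overlap, a log2 fold change of -0.59 ± 0.136 (adjusted p 0.00139). Pola1, the catalytic subunit of polymerase alpha, fell by 0.38 (adjusted p 0.00716, and 0.0951 without Dgal library 2). The accessory subunit Pola2, the primase subunits Prim1 and Prim2 and the delta subunit Pold1 were at 0.15, 0.09, -0.22 and -0.01 and did not pass.

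Genes of the clamp, of the joining of DNA pieces and of chromatin fell to different degrees. Pcna, the sliding clamp, was at 62.9, 52.6 and 56.5 CPM in the control and at 54.1, 48.9 and 51.8 CPM with D-galactose. The ranges overlapped, and the log2 fold change of -0.15 ± 0.0544 passed with an adjusted p of 0.035 (edgeR). That call was lost without control library 1, control library 3, Dgal library 2 or Dgal library 3 and in a fit of the 2 groups alone (adjusted p up to 0.392). Lig1, DNA ligase 1, was at 18.4, 16.3 and 18.2 CPM against 13.8, 13.2 and 14.5 CPM, with no overlap and a log2 fold change of -0.35 ± 0.0739 (adjusted p 0.000597). Fen1, the flap endonuclease that trims primers, fell by 0.33 (adjusted p 0.00363). Uhrf1, which recognises half-methylated DNA behind the fork and brings in the methyltransferase Dnmt1, was at 10.9, 11.3 and 11.7 CPM in the control and at 7.37, 6.43 and 6.80 CPM with D-galactose. Its log2 fold change was -0.72 ± 0.0845 (adjusted p 8.82e-08), the smallest p among the 41 in this comparison. Chaf1b and Chaf1a, subunits of the chromatin assembly factor that places histones on new DNA, fell by 0.72 (adjusted p 0.00276) and 0.42 (adjusted p 0.0048). Rpa1, the large subunit of the single-strand binding protein, was at 60.8, 58.4 and 62.7 CPM in the control and 69.6, 60.3 and 60.0 CPM with D-galactose, overlapping ranges at a log2 fold change of 0.06 (adjusted p 0.347).

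**Figure D2:**
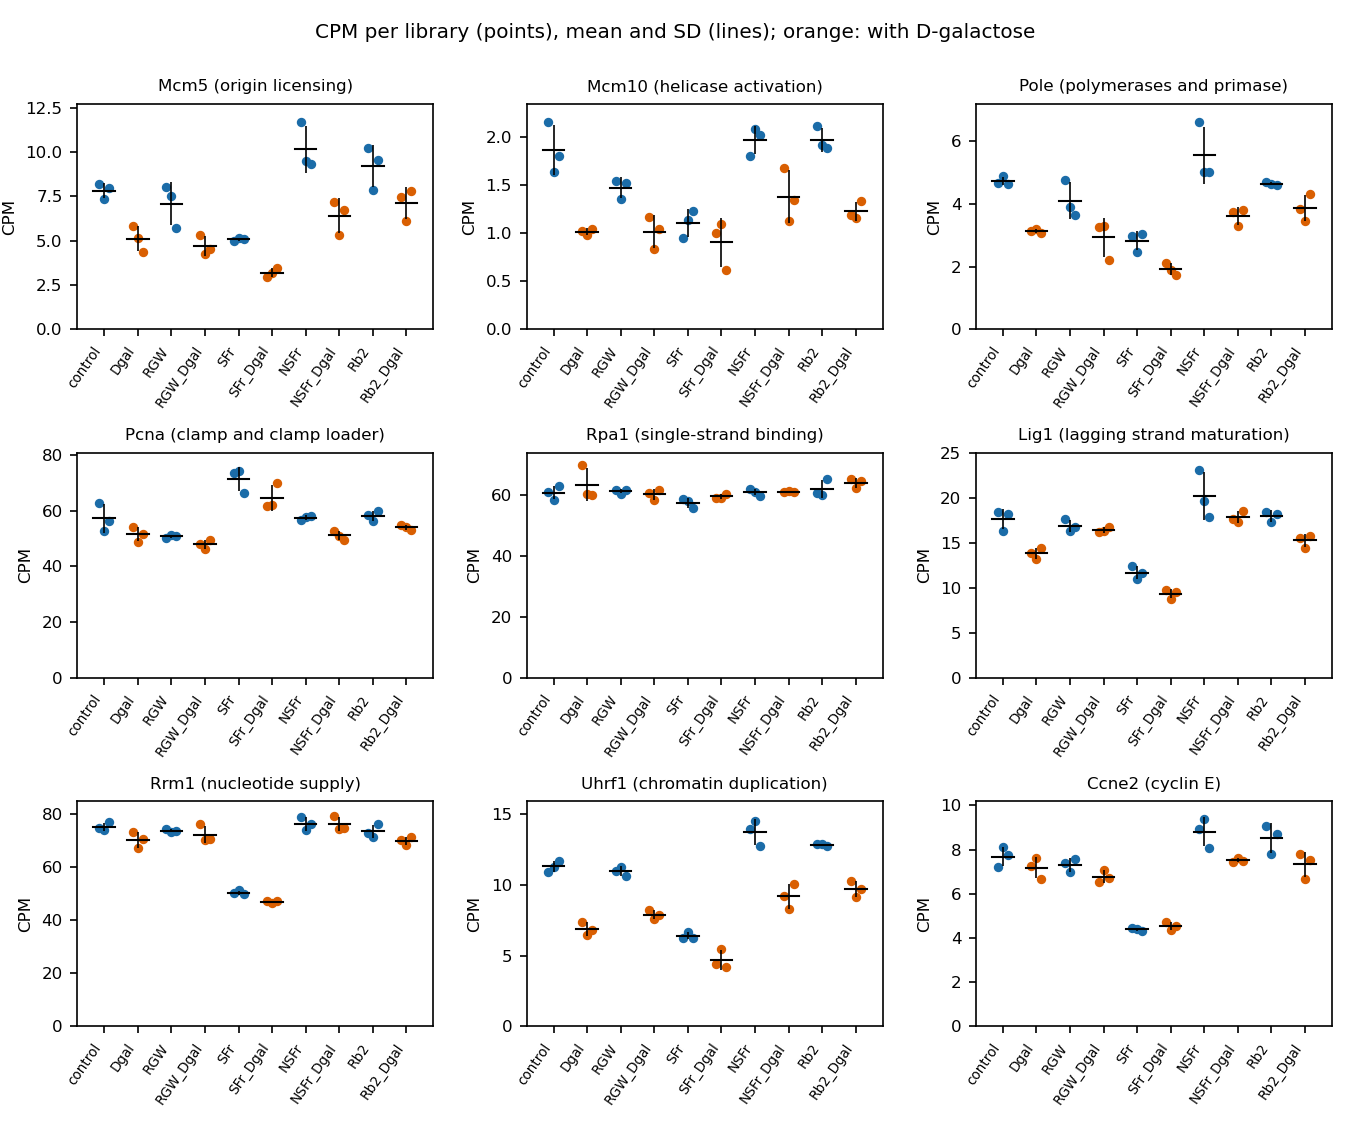
CPM (y axis) of Mcm5, Mcm10, Pole, Pcna, Rpa1, Lig1, Rrm1, Uhrf1 and Ccne2, the member of smallest p over the 10 groups in each role, with 1 point per library, orange for groups with D-galactose and blue for those without, and lines for the group mean and SD. Uhrf1 lies between 6.43 and 7.37 CPM in the Dgal libraries and between 10.9 and 11.7 CPM in the control libraries, whereas the group means of Rpa1 stay between 57.4 and 63.8 CPM.

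The D-galactose comparison was repeated in the study after each of the 4 preparations, in libraries not shared with one another. After RGW 8 members were called lower and none higher, where 15.2% of all tested genes were called, 8.93% lower and 6.3% higher. With SFr as the background 9 were lower and 3 higher, where 19% of all tested genes were called, 10.5% lower and 8.46% higher. In the NSFr pair of groups 13 were lower and none higher, where 12.7% of all tested genes were called, 6.98% lower and 5.76% higher. In the Rb2 pair 13 were lower and 1 higher, where 21% of all tested genes were called, 11.2% lower and 9.81% higher. Mcm5, Tk1, Uhrf1 and Chaf1b were called lower in all 5 of these comparisons, and Pole and Tyms in 4. Of the calls of the first 4 genes, that of Mcm5 after Rb2 was lost in 3 of 11 alternative settings (adjusted p up to 0.190) and that of Chaf1b after SFr in 2. A further 6 members were called lower in 3, 4 in 2, 6 in 1 and 19 in none. The sign of the log2 fold change was below 0 in 5 of 5 for 25 of the 41, and above 0 in 5 of 5 for Mcm6, Gins3 and Rpa2. How often all tested genes recurred in this way was not counted. These tallies of calls and signs therefore have no share to be set beside. For Tk1 the 5 log2 fold changes ran from -1.06 to -0.73 and for Mcm5 from -0.67 to -0.37.

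Without any preparation the largest fall was that of Tk1, and it was again the largest in the SFr and NSFr pairs. After SFr, Tk1 was at 4.43, 3.86 and 4.57 CPM and with D-galactose at 2.63, 2.44 and 2.22 CPM, with no overlap and a log2 fold change of -0.83 ± 0.172 (edgeR adjusted p 0.000716). After NSFr it went from 10.5, 9.20 and 9.32 CPM to 6.91, 5.08 and 4.97 CPM, a log2 fold change of -0.78 ± 0.129 (adjusted p 8.14e-05). Chaf1b had the largest fall after RGW and after Rb2. It stood at 2.32, 2.96 and 2.62 CPM with RGW and at 1.60, 1.46 and 1.37 CPM with RGW_Dgal, each library of the first above each of the second, at a log2 fold change of -0.84 ± 0.178 (adjusted p 0.00108). With Rb2 it stood at 3.68, 3.69 and 3.27 CPM and with Rb2_Dgal at 2.17, 1.58 and 1.90 CPM, at -0.92 ± 0.161 (adjusted p 8.45e-05).

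Taken over all 5 backgrounds with equal weight, a contrast added after the data were seen, D-galactose called 32 of the 41 members, 28 lower and 4 higher, where 51.1% of all tested genes were called, 26.4% lower and 24.7% higher. With no harvest time in the labels, the pairs with a preparation may differ in time of exposure as well as in the sugar. Tk1 was at -0.83 ± 0.0652 (edgeR adjusted p 3.65e-12), Chaf1b at -0.78 ± 0.0782, Mcm5 at -0.58 ± 0.0602 (adjusted p 1.21e-09) and Uhrf1 at -0.53 ± 0.0371 (adjusted p 8.5e-14). Orc1, the origin recognition ATPase with the fewest counts of the 41, was called in this contrast at -0.50 ± 0.156 (adjusted p 0.00752). The 4 that rose were Mcm6 at 0.18 ± 0.0257 (adjusted p 4.95e-07), Gins3 at 0.13, Rpa2 at 0.09 and Pola2, the regulatory subunit of polymerase alpha, at 0.07, the last lost with DESeq2 and without SFr library 3. Their rises were thus small beside the falls of Tk1, Chaf1b, Mcm5 and Uhrf1.

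Mcm5 and Mcm6, which take part in the same ring in equal numbers, parted in each background. In the RGW libraries Mcm6 was at 32.8, 33.0 and 31.4 CPM and in RGW_Dgal at 36.4, 33.4 and 36.8 CPM. In SFr it was at 27.9, 27.5 and 24.3 CPM and in SFr_Dgal at 32.2, 32.7 and 33.8 CPM, with no overlap and a log2 fold change of 0.31 ± 0.0585 (edgeR adjusted p 0.000202), its largest rise. It was called higher in 3 of the 5 comparisons, over a range of 0.06 to 0.31, though after Rb2 the call was lost in 4 of 11 alternative settings. Within a library the ratio of Mcm5 counts to Mcm6 counts, which does not depend on library scaling, was 0.245, 0.229 and 0.242 in the control and 0.157, 0.123 and 0.123 in the Dgal libraries. The group mean of the ratio went from 0.218 to 0.132 with D-galactose after RGW, from 0.192 to 0.0976 after SFr, from 0.283 to 0.171 after NSFr and from 0.270 to 0.185 after Rb2. This pair was chosen after its values were seen, so the ratio is a description with no test.

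**Figure D3:**
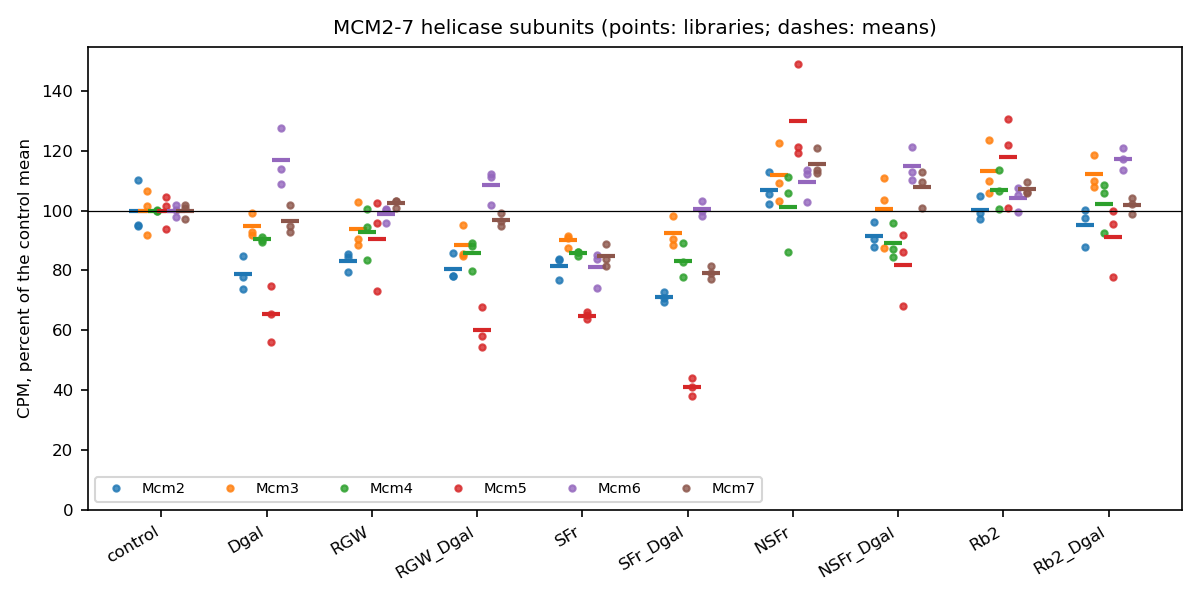
CPM of the 6 MCM subunits as a percent of each gene's control mean (y axis) in the 10 groups (x axis), with 1 point per library, a dash at each group mean and 1 colour per gene. The Mcm5 mean is lower with D-galactose than without it in each pair of groups and the Mcm6 mean is higher; in CPM, the control libraries lie at 7.34 to 8.18 and the Dgal libraries at 4.39 to 5.85 for Mcm5, and at 32.0 to 33.4 and 35.6 to 41.8 for Mcm6.

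Both Mcm5 and Mcm6 carry the E2F motif in their promoters. It was written as TTTCCCGC, TTTCGCGC, TTTGCCGC or TTTGGCGC and searched on both strands in the 250 bases before and 50 bases after each gene's start (RefSeq, GRCm38.p6), a window that was given for 34 of the 41 members. A gene was counted if any of its promoters held the motif. By gene it was found in 14 of these 34 members (41.2%), in 4.5% of the 9683 tested genes with a promoter in the table and in 2.6% of all 27025 genes with one. By single promoter it was in 2.26% of all 32851 promoters of that length. The windows below, shown because they carry the motif in the 2 MCM genes that moved in opposite directions and in 3 other genes that fell with D-galactose, are written 5′ to 3′ on the strand of the gene, and capitals mark the motif, with overlapping matches on the 2 strands joined. The Mcm5 and Mcm6 windows each hold 2 overlapping matches, and Mcm6 holds a further single match nearer its start.
Mcm5, chr8:75109347-75109376, plus strand: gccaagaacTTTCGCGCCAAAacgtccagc
Mcm6, chr1:128359795-128359824, minus strand: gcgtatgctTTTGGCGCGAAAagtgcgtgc
Mcm6, chr1:128359735-128359762, minus strand: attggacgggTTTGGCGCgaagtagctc
Pola1, chrX:93632276-93632303, minus strand: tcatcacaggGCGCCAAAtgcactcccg
Cdc6, chr11:98908003-98908030, plus strand: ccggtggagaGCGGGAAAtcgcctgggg
Uhrf1, chr17:56304118-56304145, plus strand: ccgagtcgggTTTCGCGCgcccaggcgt
Between the match and the RefSeq start of the gene lie 141 bases in Mcm5, and 98 and 39 bases in Mcm6. Those of Mcm5, Mcm6 and Pola1 lie outside the gene models of GENCODE vM21, and those of Cdc6 and Uhrf1 fall in an intron of that annotation. With D-galactose against the control, the 14 members with the motif had a median log2 fold change of -0.16, with 6 called lower and 1 higher, and the 20 without it a median of -0.14, with 10 called lower. The CCAAT box, the motif of the factor NFY, was in 61.8% of the members and 43.0% of the tested genes, again counted by gene. The cell cycle homology region, searched as TTTGAA or TTCGAA on both strands, was in 20.6% and 16.2%. A match says only that the letters are there, and the absence of one only that they are not in this window.

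Of the 4 preparations alone, the saponin fraction lowered the most members. In SFr against the control 28 of the 41 members passed (edgeR), 27 lower and 1 higher, where 43.1% of all tested genes were called, 21.8% lower and 21.3% higher. The median log2 fold change was -0.30 over the members and 0.0005 over all tested genes, and 37 of 41 lay below 0. By role, 7 of 10 licensing genes fell, 2 of 5 helicase activation genes, 4 of 6 polymerase and primase genes, 2 of 5 clamp genes beside 1 that rose, both lagging strand genes, 4 of 5 nucleotide supply genes, all 4 chromatin genes and both E cyclins. Among these calls Fen1 (adjusted p 0.045) was lost in 8 of 11 alternative settings, no filter, the replicate block and DESeq2 among them, Chaf1a (adjusted p 0.0435) in 5, Rfc3 in 3 and Mcm4 and Cdc45 in 1 each. With D-galactose present, in SFr_Dgal against Dgal, 19 passed, 17 lower and 2 higher, where 41.3% of all tested genes were called, 21% lower and 20.3% higher, at a median of -0.15. Here Chaf1b was lost in 4 of 11 alternative settings, Prim1 in 2 and Ccne1, Cdt1 and Mcm6 in 1 each. In both comparisons 16 members were called lower and Pcna was called higher. These 2 comparisons share no library. The share of all tested genes called in the same direction in both was not counted, so this overlap has nothing to be set against.

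Beside these falls, other groups of cells' genes moved in the same libraries. Of 20 tested myotube markers 18 fell with SFr and none rose, where 21.8% of all tested genes were called lower and 21.3% higher. The summed level of these markers was 25603 to 27759 CPM in the SFr libraries. Of 14 markers of undifferentiated myoblasts or reserve cells 7 fell and 4 rose, and their sum was 1042 to 1068 CPM with SFr. The sum of the macrophage and blood cell markers was 3.54 to 3.65 CPM with SFr and 5.67 to 5.93 CPM with SFr_Dgal, of which Cd68 made up a mean of 3.35 and 5.61 CPM. Group means of the summed fat cell markers ran from 5.14 CPM in NSFr to 7.31 CPM in SFr_Dgal, with 5.47 CPM in the control and 7.04 CPM in SFr. Those of bone and cartilage markers ran from 82.3 CPM in Dgal to 100.2 CPM in SFr, with 88.1 CPM in the control. The part of these shifts in the fall of the replication genes was not tested.

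Tk1 again fell most with SFr, from the control values above to 4.43, 3.86 and 4.57 CPM, all below the lowest control library, at a log2 fold change of -0.91 ± 0.139 (edgeR adjusted p 2.26e-06). Uhrf1 was at 6.27, 6.70 and 6.25 CPM with SFr, below every control library, at -0.82 ± 0.0828 (adjusted p 4.24e-10). Mcm10 was at 0.955, 1.14 and 1.24 CPM and fell by 0.76 on the log2 scale (adjusted p 0.000676). Pole, the leading strand polymerase, was at 2.97, 2.48 and 3.06 CPM, a fall of 0.73 (adjusted p 2.86e-05). In SFr_Dgal it reached 2.11, 1.91 and 1.73 CPM, below every Dgal library, and had the largest fall of SFr_Dgal against Dgal, at -0.71 ± 0.158 (adjusted p 0.000434). Lig1 was at 12.4, 11.0 and 11.6 CPM with SFr and 9.74, 8.77 and 9.58 CPM with SFr_Dgal, at -0.59 ± 0.0738 and -0.56 ± 0.0799 in the respective comparisons (adjusted p 3.46e-08 and 5.59e-07). Mcm5 was at 4.98, 5.16 and 5.09 CPM with SFr and 2.97, 3.21 and 3.45 CPM with SFr_Dgal, at -0.63 and -0.66. For Pole, Lig1 and Mcm5 every SFr library thus lay below every control library, and every SFr_Dgal library below every Dgal library.

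Some genes that were not called in Dgal against the control were low with SFr. Part of them did fall with D-galactose in other comparisons. Of the 5 D-galactose comparisons, Rrm2 was called lower in 1 and Prim2 in 3. In the contrast over the 5 backgrounds all 5 nucleotide supply genes, Rrm1 among them, were called lower. Rrm1, the large subunit of ribonucleotide reductase, which makes deoxyribonucleotides, was at 74.6, 74.2 and 77.0 CPM in the control and 50.3, 51.3 and 49.8 CPM with SFr. The log2 fold change was -0.58 ± 0.0397 (edgeR adjusted p 3.34e-14), the smallest p of the 41 in this comparison. In the Dgal libraries Rrm1 was at 73.3, 67.3 and 70.6 CPM and in SFr_Dgal at 47.2, 46.5 and 47.3 CPM, again -0.58 ± 0.0403 (adjusted p 4.81e-14). Its small partner Rrm2 was at 80.2, 77.8 and 80.9 CPM in the control and 72.7, 74.6 and 72.7 CPM with SFr, a smaller fall of 0.12 on the log2 scale (adjusted p 0.00938). As a description of this pair, chosen after its values were seen, the ratio of Rrm1 to Rrm2 counts was 0.945 ± 0.0133 (SD, n = 3) in the control and 0.688 ± 0.00321 with SFr. The Rrm2 count was fractional in every library, so that ratio depends, to an extent not measured, on how shared reads were assigned.

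Neither E cyclin was called in Dgal against the control, and both were lower with SFr. Of the 5 D-galactose comparisons, Ccne2 was called lower in 2 and Ccne1 in 0. Ccne2, one of the 2 E cyclins that drive entry into S phase with Cdk2, was at 7.21, 8.10 and 7.74 CPM in the control and 7.24, 7.63 and 6.69 CPM with D-galactose, overlapping ranges. With SFr it was at 4.43, 4.41 and 4.33 CPM and with SFr_Dgal at 4.73, 4.35 and 4.53 CPM, below every control and Dgal library, at -0.80 ± 0.0872 (edgeR adjusted p 2.05e-09) and -0.66 ± 0.0886 (adjusted p 2.05e-07). Ccne1 fell by 0.60 with SFr (adjusted p 1.05e-06) and by 0.29 in SFr_Dgal against Dgal. The primase subunits Prim1 and Prim2, which lay the RNA primers, each fell by 0.48 with SFr, and Prim2 by 0.62 in SFr_Dgal against Dgal (adjusted p 7.86e-06). Mcm6, the subunit that rose with D-galactose, fell with SFr by 0.30 (adjusted p 7.3e-05).

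Pcna and Cdt1 were exceptions. Pcna was at 73.5, 74.1 and 66.5 CPM with SFr, above every control library, at a log2 fold change of 0.31 ± 0.0524 (edgeR adjusted p 8.12e-06). In SFr_Dgal it was at 61.7, 62.1 and 69.8 CPM, above every Dgal library, at 0.32 ± 0.0535 (adjusted p 7.44e-06). Pcna was thus the 1 member called higher with SFr both without and with D-galactose, though its count was fractional in most libraries. The clamp loader that opens the PCNA ring did not rise with it: Rfc5 fell by 0.46 with SFr, Rfc3 by 0.28 in a call lost without control library 3, without SFr library 3 or in a fit of the 2 groups alone (adjusted p up to 0.191), and Rfc2 and Rfc4 were at -0.06 and -0.09. Cdt1 was at 3.73, 4.01 and 3.78 CPM in the control and 4.40, 4.53 and 4.64 CPM with SFr, a log2 fold change of 0.24 that did not pass. In SFr_Dgal it was at 4.73, 3.90 and 4.86 CPM against 3.48, 3.75 and 3.03 CPM in Dgal, with no overlap, at 0.41 ± 0.121 (adjusted p 0.00659), a call lost without Dgal library 3 (adjusted p 0.0634).

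With the non-saponin fraction few members passed, most of them higher. In NSFr against the control 5 members passed (edgeR), 4 higher and 1 lower, where 8.08% of all tested genes were called, 4.56% higher and 3.51% lower. The median was 0.12 over the members and -0.0046 over all tested genes, and 36 of 41 were above 0. Mcm5 had the largest rise, at 11.7, 9.49 and 9.32 CPM with NSFr, above every control library, at 0.37 ± 0.119 (adjusted p 0.0474). The Mcm5 call was lost in 7 of 11 alternative settings, with DESeq2, without the filter on low counts and without any 1 of the 3 control libraries or of NSFr libraries 1 and 2 (adjusted p up to 0.232). Uhrf1 was at 13.9, 14.5 and 12.7 CPM, also above every control library, at 0.29 ± 0.0743 (adjusted p 0.0135). Mcm7 rose by 0.21 (adjusted p 0.00544) and Rrm2 by 0.12 (adjusted p 0.0333). The call of Uhrf1 was lost without control library 1 or NSFr library 2, that of Rrm2 in 5 of 11 settings and that of Mcm7 in none. The number called with NSFr depended on single libraries, from 1 without control library 1 to 4, with 2 without control library 2, NSFr library 1 or NSFr library 2 and 3 without control library 3.

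Under D-galactose the rises with NSFr were in genes that D-galactose had lowered. In NSFr_Dgal against Dgal 5 members passed, all higher, where 6.33% of all tested genes were called, 3.5% higher and 2.82% lower, at a median of 0.09 beside -0.0035 for all tested genes. Tk1 was at 6.91, 5.08 and 4.97 CPM in NSFr_Dgal and 4.78, 2.72 and 4.08 CPM in Dgal, each library of the first above each of the second, at 0.54 ± 0.155 (edgeR adjusted p 0.0323). Uhrf1 was at 9.21, 8.28 and 10.1 CPM, above every Dgal library, at 0.42 ± 0.0865 (adjusted p 0.00303). Lig1 was at 17.6, 17.3 and 18.6 CPM and rose by 0.36 (adjusted p 0.00223), Tyms rose by 0.38 (adjusted p 0.0376) and Mcm2 by 0.21 (adjusted p 0.0493). Of these, Mcm2 was lost in 8 of 11 alternative settings, Tk1 and Tyms in 4 each (adjusted p up to 0.214 for Tk1) and Uhrf1 and Lig1 in none. All 5 are also among the 17 called lower in Dgal against the control, but both comparisons use the same 3 Dgal libraries, so a low value there would enter both. Leaving out Dgal library 2 or Dgal library 3 left 2 members called, leaving out NSFr_Dgal library 1 or 3 left 3, and leaving out Dgal library 1 raised the number to 8. Uhrf1 was called higher with NSFr in both of the NSFr comparisons, which share no library.

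Rb2 alone moved none of the 41 past the test by edgeR or by DESeq2, where edgeR called 1.53% of all tested genes, 0.575% higher and 0.96% lower. At an unadjusted p under 0.05, a looser threshold than that of these shares, there were 9 members. The median was 0.10 beside -0.0034 for all tested genes, and 33 of 41 lay above 0. The smallest p was that of Dnmt1, the methyltransferase that copies DNA methylation to new strands, at 56.2, 57.9 and 59.0 CPM in the control and 53.9, 53.5 and 51.1 CPM with Rb2, at -0.13 ± 0.0449 with an adjusted p of 0.179. With D-galactose, in Rb2_Dgal against Dgal, 2 members were called higher, where 2.26% of all tested genes were called, 1.16% higher and 1.1% lower. At the looser unadjusted p under 0.05 there were 17 members, a number that cannot be set against those shares. Uhrf1 was at 10.3, 9.15 and 9.71 CPM, above every Dgal library, at 0.50 ± 0.0866 (edgeR adjusted p 0.000479). Mcm2 was at 18.6, 21.2 and 20.7 CPM, above every Dgal library, at 0.28 ± 0.0675 (adjusted p 0.0182), a call lost in 4 of 11 alternative settings. Without Dgal library 1 there were 5 calls, and without Dgal library 2, Dgal library 3 or Rb2_Dgal library 3 there was 1. DESeq2 called 5.

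The water extract moved few of the genes. In RGW against the control 2 members were called, both lower, where 3.21% of all tested genes were called, 1.17% lower and 2.04% higher. Mcm2 was at 18.1, 16.9 and 17.9 CPM with RGW, below every control library, at -0.27 ± 0.0657 (edgeR adjusted p 0.0171). Dnmt1 was at 52.6, 50.1 and 49.1 CPM, below every control library, at -0.19 ± 0.0452 (adjusted p 0.0127). No member was called without control library 3 or RGW library 2, and 1 was called without RGW library 3. In RGW_Dgal against Dgal 1 member was called, higher, where 5.06% of all tested genes were called, 2.52% higher and 2.54% lower. This was Lig1, at 16.2, 16.3 and 16.8 CPM against 13.8, 13.2 and 14.5 CPM, at 0.24 ± 0.0742 (adjusted p 0.0473). That call was lost whichever of the 6 libraries was left out, and DESeq2 did not make it.

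The 3 control libraries enter several of these comparisons, as the values of Dnmt1 illustrate. It was below the control with D-galactose, RGW, SFr and NSFr in turn (log2 fold changes of -0.14, -0.19, -0.34 and -0.15, all called by edgeR), and all 4 comparisons use the same 3 control libraries, which held its highest levels of any group. The call was lost in 4 of 11 alternative settings for D-galactose, 4 for RGW, 8 for NSFr and none for SFr. In comparisons that do not use the control, the D-galactose log2 fold change was 0.05 on RGW, 0.0014 on SFr, 0.05 on NSFr and -0.02 on Rb2 backgrounds, none of them called, and over the 5 backgrounds it was at -0.01 with an adjusted p of 0.656. With SFr it was lower in comparisons without those libraries as well, at -0.20 in SFr_Dgal against Dgal (adjusted p 0.000719).

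Averaged over the states without and with D-galactose, contrasts added after the data were seen, 14 members were higher with NSFr and none lower, where 18.7% of all tested genes were called, 9.83% higher and 8.85% lower. Tk1 was at 0.40 ± 0.099 (edgeR adjusted p 0.00499) and Uhrf1 at 0.35 ± 0.057 (adjusted p 5.19e-05), and neither call was lost under any alternative run. Without Dgal library 2 there were 9. With Rb2, 7 members were higher and none lower, where 5.55% of all tested genes were called, 2.66% higher and 2.89% lower, among them Mcm5 at 0.36, Tk1 at 0.34, Uhrf1 at 0.34 and Cdc6 at 0.47. Of these 4, Tk1 was lost in 8 of 17 alternative settings, Cdc6 in 7, Mcm5 in 2 and Uhrf1 in none. That number was 2 without Dgal library 2, 3 without control library 2 or Rb2_Dgal library 3, and 4 without Dgal library 3 or Rb2 library 1. With RGW 1 was lower, Pcna at -0.14 ± 0.0386 (adjusted p 0.0153), where 9.3% of all tested genes were called, 4.1% lower and 5.2% higher. With SFr 28 were called, 26 lower and 2 higher, where 54.6% of all tested genes were called, 27.7% lower and 26.9% higher, and Cdt1 joined Pcna among the higher at 0.32 ± 0.0838 (adjusted p 0.00142). The contrasts of the 4 preparations share the control and Dgal libraries.

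**Figure D4:**
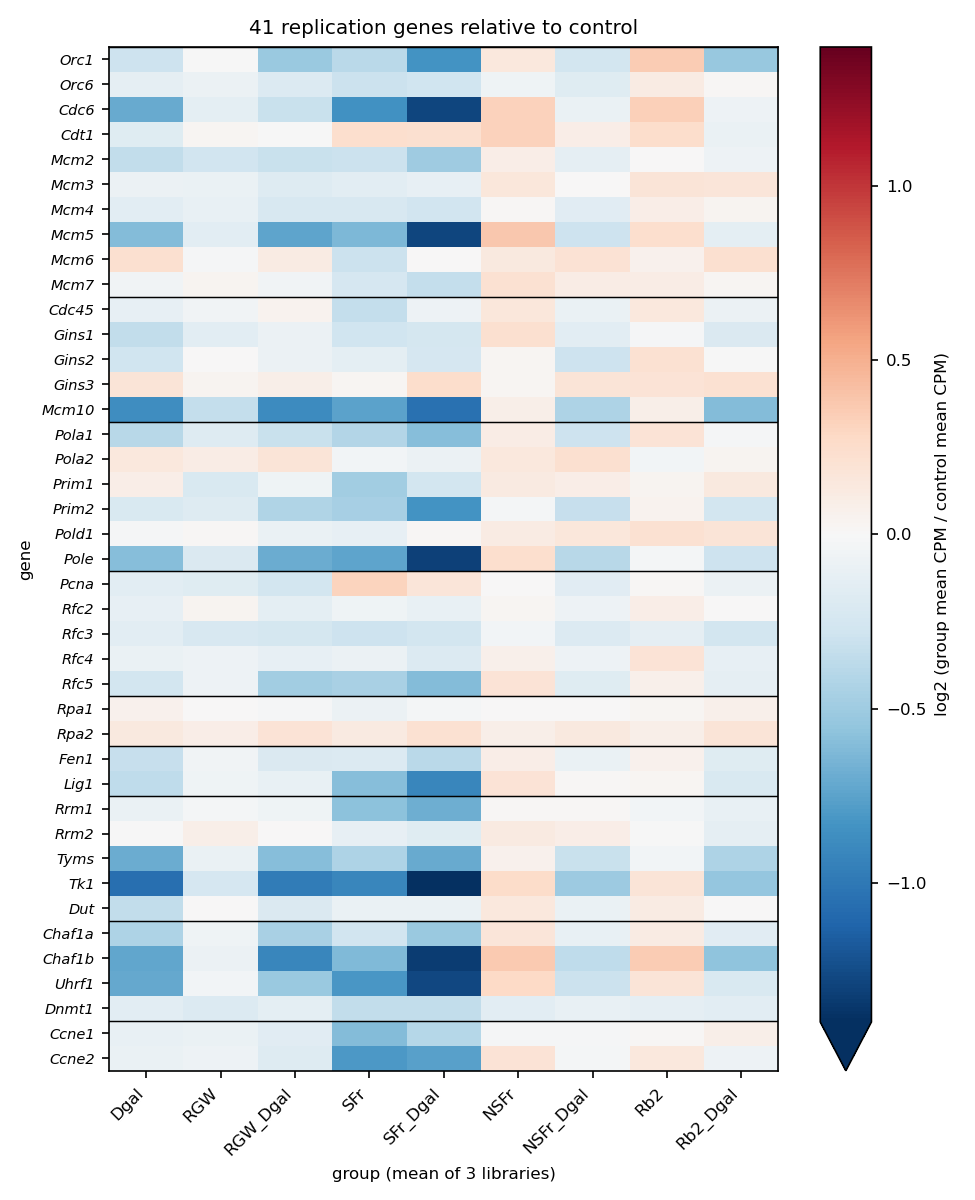
Log2 ratio (colour) of each gene's mean CPM in a group to its mean in the control group, for the 41 genes in rows by role and 9 groups in columns, with blue below and red above the control and values under -1.4, as for Tk1 in SFr_Dgal, drawn in the end colour. The darkest blue cells are in the SFr_Dgal column (Tk1, Chaf1b, Pole, Mcm5, Uhrf1 and Cdc6), and Pcna is red in the SFr and SFr_Dgal columns.

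The 2 fractions were given at the same dose and could be set against each other directly. SFr against NSFr called 31 of the 41 members, 30 lower and 1 higher, where 40.4% of all tested genes were called, 19.6% lower and 20.8% higher, at a median of -0.44 beside 0.0041 for all tested genes. With D-galactose in both, 25 were called, 24 lower and 1 higher, where 41% of all tested genes were called, 20.3% lower and 20.7% higher, at a median of -0.30. Tk1 differed most in both, at 4.43, 3.86 and 4.57 CPM with SFr against 10.5, 9.20 and 9.32 CPM with NSFr. The log2 difference was -1.17 ± 0.135 (edgeR adjusted p 1.27e-08) without and -1.22 ± 0.164 (adjusted p 2.68e-07) with D-galactose. Cdc6 was at -1.16 and -1.17 in the 2 comparisons. Pcna was the 1 member higher with SFr in each, at 0.31 ± 0.0523 (adjusted p 8.71e-06) and 0.34 ± 0.053 (adjusted p 2.95e-06). Pcna and the members called lower thus stood in opposite order both in libraries with the sugar and in those without it.

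Against the vehicle control, the groups with both agents differed in how many members were called. SFr_Dgal had the most, with 27 members called, 24 lower and 3 higher, where 49.9% of all tested genes were called, 25.4% lower and 24.5% higher, at a median of -0.33. Tk1 was at 2.63, 2.44 and 2.22 CPM in SFr_Dgal, all below the lowest control library at 7.61 CPM, at -1.74 ± 0.155 (edgeR adjusted p 4.15e-11). Chaf1b, Pole, Mcm5, Uhrf1 and Cdc6 were at -1.34, -1.31, -1.28, -1.28 and -1.27 in the same comparison. The 3 that rose were Gins3, at 8.95, 8.60 and 8.64 CPM in the control and 10.1, 10.7 and 10.4 CPM in SFr_Dgal (0.25 ± 0.0694, adjusted p 0.00336), Rpa2 at 0.20 and Pcna at 0.17, the last 2 lost in 3 of 11 alternative settings each.

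RGW_Dgal had 17 called members, 16 lower and 1 higher, where 23.8% of all tested genes were called, 12.7% lower and 11.1% higher. Tk1, at 3.94, 4.05 and 4.23 CPM, was below every control library and again had the largest fall, at -0.99 ± 0.142. The riser was Pola2, at 18.9, 17.8 and 17.5 CPM in the control and 20.7, 20.6 and 20.3 CPM in RGW_Dgal (0.18 ± 0.0559, adjusted p 0.0165 by edgeR), a call lost without control library 2 or 3 and in a fit of the 2 groups alone. NSFr_Dgal had 10, 8 lower and 2 higher, where 23.6% of all tested genes were called, 12.7% lower and 10.9% higher. Rb2_Dgal also had 10, 8 lower and 2 higher, where 18.4% were called, 9.98% lower and 8.41% higher. The count of NSFr_Dgal is thus near the share over all tested genes. In NSFr_Dgal the largest fall was that of Tk1 at -0.52 ± 0.133 (adjusted p 0.00454) and the largest rise that of Pola2, at 20.7, 21.4 and 21.3 CPM (0.22 ± 0.0555, adjusted p 0.00338). In Rb2_Dgal the largest fall was that of Mcm10, at 1.19, 1.16 and 1.34 CPM (-0.61 ± 0.179, adjusted p 0.0146, lost without control library 1 or Rb2_Dgal library 2), and the largest rise that of Mcm6, at 39.6, 37.2 and 38.4 CPM (0.23 ± 0.0576, adjusted p 0.00471). The medians were -0.18 for RGW_Dgal, -0.10 for NSFr_Dgal and -0.09 for Rb2_Dgal, and these groups share the control libraries with each other and with Dgal. Without NSFr_Dgal library 2 the 10 of NSFr_Dgal became 4, and the 10 of Rb2_Dgal became 3 without Rb2_Dgal library 3, 4 without control library 3 and 6 without Rb2_Dgal library 2.

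Whether a preparation changed the response to D-galactose was tested as an interaction, the D-galactose effect after a preparation minus that after vehicle. With no harvest time in the labels, this difference may hold time of exposure as well as the sugar. No member was called by edgeR for RGW, SFr, NSFr or Rb2, nor in the joint test over the 5 backgrounds, and DESeq2 called none either. Of all tested genes, 0%, 0.583%, 0.041%, 0% and 0.796% were called in these 5 tests at adjusted p under 0.05. At an unadjusted p under 0.05 there were 3, 6, 2, 3 and 4 members. That threshold is looser, so these numbers cannot be set against those shares. The lowest adjusted p was 0.0873 for Cdc45, the helicase subunit that joins GINS and the MCM ring, in the joint test, and 1 member was called there without RGW_Dgal library 2. Cdc45 was at 7.21, 5.86 and 6.28 CPM in the control, 5.90, 6.11 and 5.79 CPM in Dgal, 5.22, 4.92 and 5.26 CPM in SFr and 6.36, 5.44 and 6.68 CPM in SFr_Dgal. It was lower with SFr alone (-0.33, adjusted p 0.0043) and higher in SFr_Dgal than in SFr (0.27, adjusted p 0.0405, lost in 8 of 11 alternative settings), but the interaction of 0.40 ± 0.134 did not pass (adjusted p 0.164). A difference between backgrounds was therefore not detected for any member, which does not show that the responses were equal.

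Over the 10 groups as a whole 35 of the 41 members differed somewhere (edgeR, joint test), where 72.9% of all tested genes did. The 6 that did not pass were Gins1, Rfc3, Rfc4, Rpa1, Rpa2 and Orc1. Rpa1 was at 58.5, 58.1 and 55.5 CPM in the SFr libraries, its lowest group mean of 57.4 CPM, and its highest was 63.8 CPM in Rb2_Dgal. Gins1 and Orc1 were among the members with the fewest counts.

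A second list of 50 replication genes, held apart from the 41, had more falls than rises with D-galactose and with SFr. Its share called in either direction with SFr was no larger than that of all tested genes, though nearly all of those calls were falls. With D-galactose 11 fell and 4 rose, where 25.1% of all tested genes were called, 13.1% lower and 11.9% higher. The median log2 fold change of the list was -0.08. Ccna2, the cyclin of S phase and G2, was at -1.21 ± 0.078, Pole2, a second subunit of polymerase epsilon, at -0.83 ± 0.18, Ticrr, which brings Cdc45 to origins, at -0.82 ± 0.21, and Asf1b, a histone chaperone, at -0.82 ± 0.09, all lower by edgeR. Timeless, a fork protection protein, rose by 0.41 ± 0.1 (adjusted p 0.004) and the origin subunit Orc5 by 0.34. With SFr 19 fell and 1 rose, where 43.1% of all tested genes were called, 21.8% lower and 21.3% higher. The median of the list was -0.17, and the falls were led by Ticrr at -1.56 and Ccna2 at -1.44. With NSFr 1 rose and 1 fell (8.08% of all tested genes called, 4.56% higher and 3.51% lower). With Rb2 1 rose (1.53% called, 0.575% higher) and with RGW 1 fell (3.21% called, 1.17% lower). Under D-galactose, 16 fell and 2 rose with SFr (41.3% of all tested genes called, 21% lower and 20.3% higher). There 4 fell with RGW (5.06% called, 2.54% lower), 1 rose with NSFr (6.33% called, 3.5% higher) and 2 rose with Rb2 (2.26% called, 1.16% higher). The NSFr riser was Ccna2 at 0.69 ± 0.081, and those with Rb2 were Asf1b at 0.42 and Ccna2 at 0.56.

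Mitosis genes, which are switched on later in the cycle, had larger falls than the replication genes in the same libraries. The 41 members summed to 709.1 to 739.7 CPM in the control, 658.4 to 698.6 CPM in Dgal, 615.9 to 630.7 CPM in SFr and 595.0 to 616.1 CPM in SFr_Dgal, so that the group means were lower than the control by 7.68% in Dgal, 14.2% in SFr and 17.1% in SFr_Dgal. A list of 24 mitosis genes summed to 387.9 to 392.4 CPM in the control and 181.5 to 205.6 CPM in Dgal, and was lower by 50.2%, 57.5% and 73.8% in these 3 groups. All 24 were called lower with D-galactose, at a median log2 fold change of -1.03, where 13.1% of all tested genes were called lower. All 24 were also called lower with SFr, at -1.28, where 21.8% of all tested genes were. Under D-galactose 18 of them were higher with NSFr (3.5% of all tested genes higher), 10 higher with Rb2 (1.16% higher) and 23 lower with SFr (21% lower). The sums of the 50 other replication genes were lower by 2.65%, 7.02% and 9.06%. Sums weight abundant genes most, and Pcna, Rrm1, Rrm2, Rpa1 and Dnmt1, which make up much of the members' sum, had D-galactose log2 fold changes between -0.15 and 0.06.

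**Figure D5:**
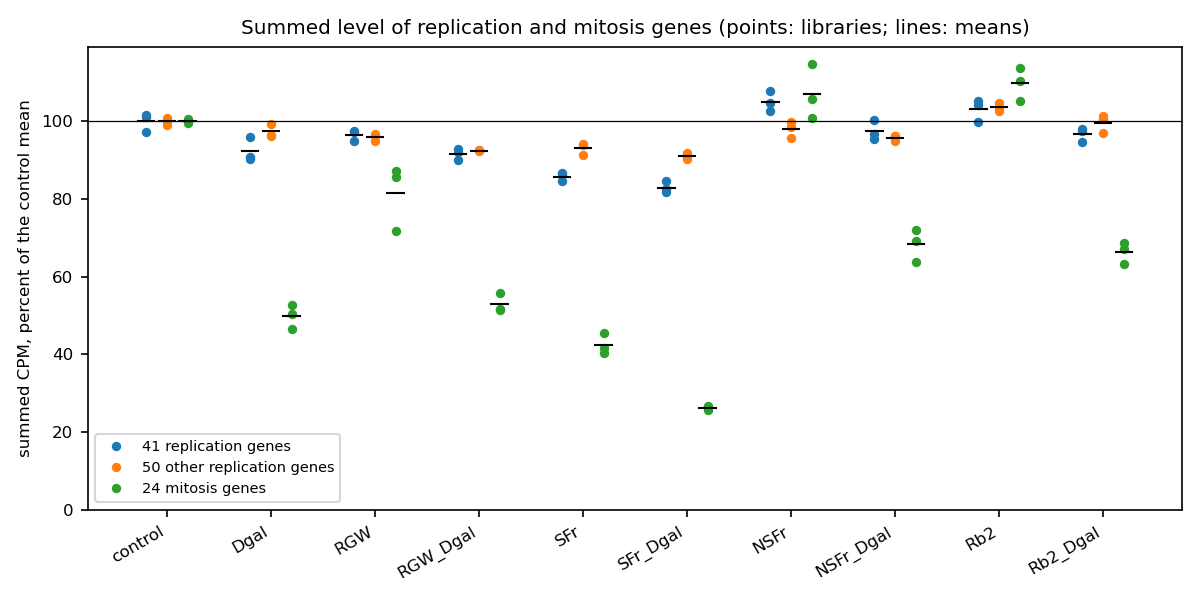
Summed CPM of the 41 replication genes, 50 other replication genes and 24 mitosis genes as a percent of each list's control mean (y axis) in the 10 groups (x axis), with 1 point per library and a line at each group mean. In CPM, the mean of the mitosis genes is 390 in the control, 194 in Dgal and 102 in SFr_Dgal, and that of the 41 replication genes 729, 673 and 604.

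Regulators upstream of S phase were taken from a list of 32, of which 29 could be tested. With D-galactose 10 fell and 1 rose, where 25.1% of all tested genes were called, 13.1% lower and 11.9% higher. Foxm1, which drives the later mitotic genes, was at -0.99 ± 0.083, Mybl2, a subunit of the complex that acts with it, at -0.84 ± 0.22, the activator E2f2 at -0.69 ± 0.0495 (edgeR adjusted p 3.66e-12), the repressor E2f7 at -0.63 ± 0.136, and the D cyclins Ccnd2 and Ccnd1 at -0.37 and -0.30. The activator E2f1 was at 0.03 ± 0.0708 (adjusted p 0.802) and the inhibitor of cyclin-dependent kinases Cdkn1a at 0.02 ± 0.0378 (adjusted p 0.81). With SFr 15 fell and 3 rose, where 43.1% of all tested genes were called, 21.8% lower and 21.3% higher. E2f7 was at -1.27, the inhibitor Cdkn1c at -1.13, Foxm1 at -1.09, E2f2 at -1.07 and Cdkn1a at -0.51 ± 0.0379 (adjusted p 2.65e-13), while Ccnd1 rose by 0.31 and E2f6 by 0.26. Both activators and inhibitors of the cycle were thus among the genes that fell with SFr, while E2f1 was at 0.06.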

How the data were processed

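Poly(A) RNA libraries were made with a directional kit and sequenced in pairs on an MGI instrument, per the labels' protocols. The authors deposited expected counts per gene. FastQC 0.11.9, Trim Galore 0.6.10, STAR 2.7.9a, RSEM 1.3.3 and the build GRCm38 (mm10) are named in the submitters' processing notes; the annotation and strand setting of counting were not given in the sources used here, and 17 members overlap a gene on the opposite strand. The counts were rounded (19.4% were not whole). Genes were filtered with filterByExpr and fitted in one model of 10 group means over 30 libraries, with TMM scaling and robust quasi-likelihood F-tests (edgeR 4.0.16, limma 3.58.1, R 4.3.3), tested beforehand on simulated counts. Calls were made where the p adjusted by Benjamini and Hochberg's method over all 12184 tested genes was under 0.05. SE is that of the log2 fold change. Replicates differed by more than sampling noise in each of 30 pairs.

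Values per library are given for the gene of smallest p over the 10 groups in each role and for the largest called rise and fall in each comparison, or the smallest p where none was called. Further members shown by library beyond this rule in a given comparison, such as Cdc45, were chosen after their values were seen. Alternatives were other scaling, no filter, DESeq2 1.42.0, a replicate block, fits of the compared groups alone and leaving out each library. The members and lists were chosen with earlier results of these data known. Gene positions are from GENCODE vM21 and promoters from RefSeq.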

Additional observations from a re-analysis of the deposited data

How the results depend on the processing

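Depth of 22209306 to 30218420 counts limits Orc1, Cdc6, Mcm10, Gins1 and Chaf1b most, and no result reversed under the alternatives run. Numbers of members called moved by over 1.5 times as follows. Without the filter on low counts NSFr against the control had 3 and RGW_Dgal against Dgal 0. DESeq2 gave 0 for RGW_Dgal against Dgal and 5 for Rb2_Dgal against Dgal. Fits of the compared groups alone gave 0 for RGW against the control, 3 for NSFr against the control, 0 for RGW_Dgal against Dgal, 4 for Rb2_Dgal against Dgal, 7 for SFr_Dgal against SFr and 6 for Rb2_Dgal against the control. When each library was summarised by the median of its members' log2 CPM in place of their mean, RGW_Dgal lay at -0.30 from the control and not at -0.24; this is a difference of library summaries, not the median of the fold changes. Same-numbered libraries did not deviate together (mean correlation -0.0023 over 135 pairs), so numbers were not taken to pair libraries. A replicate block gave 4 for Rb2_Dgal against Dgal and moved no other count by over 1.5 times. Within that bound it gave 20 for Dgal against the control and 27 for SFr against the control.

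Leaving out 1 library at a time gave 14 to 18 for Dgal against the control, 25 to 27 for SFr, 0 to 3 for RGW and 1 to 4 for NSFr. Against Dgal, RGW_Dgal gave 0 to 0, SFr_Dgal 18 to 22, NSFr_Dgal 2 to 8 and Rb2_Dgal 1 to 5. For D-galactose after a preparation the ranges were 6 to 9 (RGW), 8 to 10 (SFr), 8 to 14 (NSFr) and 6 to 14 (Rb2). After NSFr the 13 became 8 without NSFr_Dgal library 2. After Rb2 the 14 became 7 without Rb2 library 1 or Rb2_Dgal library 3, 6 without Rb2 library 3 and 8 without Rb2_Dgal library 2. Against the control, RGW_Dgal gave 13 to 17, SFr_Dgal 25 to 27, NSFr_Dgal 4 to 9 and Rb2_Dgal 3 to 7. The fractions differed in 28 to 31 members without D-galactose and 23 to 25 with it, and the joint interaction test gave 0 to 1. Averaged contrasts gave 31 to 33 (D-galactose), 0 to 3 (RGW), 26 to 30 (SFr), 9 to 15 (NSFr) and 2 to 8 (Rb2). For RGW the 1 became 0 without control library 1, Dgal library 1 or RGW_Dgal library 2, 2 without control library 2, Dgal library 3 or RGW_Dgal library 3, and 3 without RGW library 1. Beyond what the alternative's own construction shows, the cause was not tested.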
